A study of Arabidopsis thaliana with 12 samples.

Results

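Extensins and other hydroxyproline-rich glycoproteins are structural proteins of the plant cell wall. Their proline residues are hydroxylated and then decorated with short sugar chains, and extensins can be cross-linked into a network that bears on how far a wall can stretch. In dark-grown seedlings ethylene is known for shortening and thickening the hypocotyl, so genes of wall proteins are among those whose transcripts are of interest after exposure to the gas.

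The 4 genes described here, AT3G54580, AT2G22510, AT2G16630 and AT3G06750, were grouped as extensin-like, hydroxyproline-rich or related wall proteins whose ethylene response differed between the mutants ein5 and ein2. Each had exactly 1 probe set assigned to that single gene, so the group holds 4 of the 13513 single-gene probe sets and of 22746 probe sets in all. The gene table used here lists them by locus number alone, so no individual role is given to any of them. They were chosen by measured values, namely the ethylene response of ein5 minus that of ein2. Values from that contrast, from the response of either mutant and from comparisons of genotypes within 1 gas are therefore descriptions without a test. For these genes, tests are given only for the wild-type ethylene response and for genotype differences averaged over both gases. The contrast of the choice holds no wild-type mean, and the averages are other contrasts made from the same mutant arrays. The fit takes 1 spread per probe set for every comparison, so the p-values of these tests are not independent of the choice.

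Transcripts were measured on 12 single-colour oligonucleotide arrays of Arabidopsis thaliana seedlings grown in the dark. The series text names the lines as Col-0, the wild type, and the mutants ein2-5 and ein5-1. Mutations in EIN2, a membrane protein of the ethylene pathway, make seedlings insensitive to the gas, and EIN5 is named in the title of the series as an exoribonuclease, an enzyme that degrades RNA from its end. Seedlings of every genotype were kept in air or given 4 h of ethylene at 10 ppm, with 2 arrays in each of the 6 groups. The text of 1 sample, ein2 in air array 1, gives 3 days in the dark at 24 °C, while the texts of the other 11 give 5 days at 25 °C. The extraction protocol names mature leaves although the other labels name seedlings. Each mutant is represented by 1 allele. Whether the duplicates came from separate cultures is not given, so the p-values rest on a spread between duplicates that may be technical.

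Array medians as deposited lay between 922 and 1039. Duplicate arrays differed by a median of 0.25 in wild type in air and 0.32 in wild type in ethylene on the log2 scale, and by 0.19 to 0.21 in the mutants. The single measured member of the green leaf marker list, LHCB4.1, lay between 17728 and 24982 on all arrays, and 17 markers of that list were not measured under their own name. No probe set used here carries the name of either mutated gene, and the genotype labels could not be checked on their transcripts. Levels below are intensities scaled to a common array median. Changes are log2 differences of scaled intensity plus 16, with the standard error of the limma fit after ±, and they understate the change of dim probe sets. Levels of different probe sets are not comparable with each other.

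The plot of levels shows all 12 arrays for each gene.

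**Figure D1:**
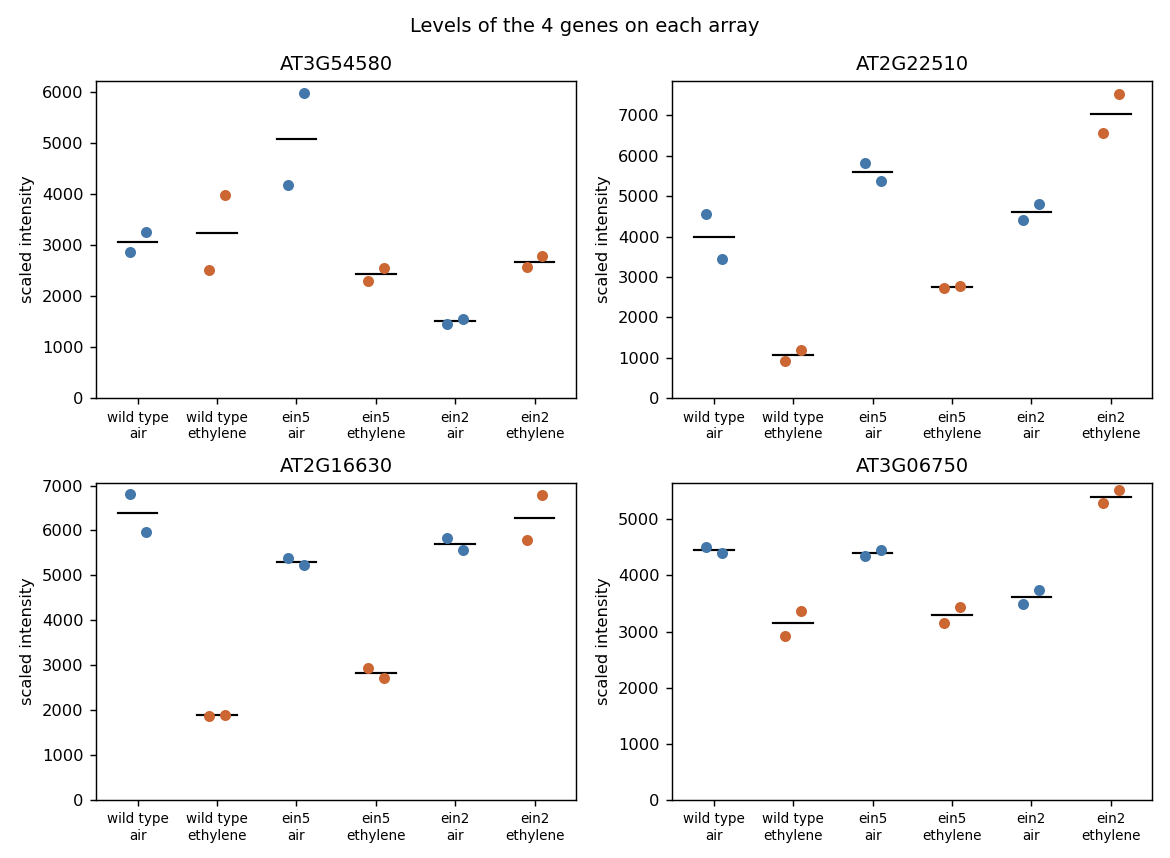
Scaled intensity of the 4 genes on each array; blue points are air arrays, orange points ethylene arrays and black lines the means of the 2 arrays of a group. On ethylene all 4 genes are lower in ein5, AT3G54580, AT2G22510 and AT3G06750 are higher in ein2, and AT2G22510, AT2G16630 and AT3G06750 are lower in wild type.

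AT2G22510 had the widest range of the 4 genes over the groups, 6.66-fold between the lowest and the highest group mean. In wild type its level was 4548 and 3439 on the air arrays and 915 and 1199 on the ethylene arrays. In ein5 it was 5819 and 5370 in air and 2724 and 2769 in ethylene. Both genotypes therefore had lower arrays in ethylene than in air, with no overlap. In ein2 the order was the opposite, with 4399 and 4812 in air and 6562 and 7521 in ethylene. In order of the means the groups ran from wild type in ethylene through ein5 in ethylene, wild type in air, ein2 in air and ein5 in air to ein2 in ethylene. Among neighbours in that order the arrays of wild type in air and ein2 in air overlapped, and no other neighbours did.

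AT2G16630 followed AT2G22510 in wild type and ein5. Its wild-type level was 6816 and 5966 in air and 1875 and 1896 in ethylene. In ein5 it was 5382 and 5230 in air and 2931 and 2721 in ethylene. These air and ethylene arrays did not overlap. In ein2 the arrays did overlap, at 5832 and 5562 in air and 5782 and 6785 in ethylene. AT2G16630 was the only one of the 4 genes whose air and ethylene arrays overlapped in ein2. The lowest 2 groups were wild type and ein5 in ethylene. The 3 highest, ein2 in air, ein2 in ethylene and wild type in air, each overlapped their neighbour.

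AT3G06750 varied least, with 1.72-fold between its lowest and highest group mean. Wild type had 4501 and 4403 in air and 2925 and 3364 in ethylene. The ein5 arrays were close to these, at 4340 and 4446 in air and 3147 and 3442 in ethylene, and overlapped the wild-type arrays of the same gas in both cases. The ein2 arrays lay outside them on both gases, lower in air at 3489 and 3750 and higher in ethylene at 5292 and 5524. The gene thus had its highest group mean in ein2 in ethylene.

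AT3G54580 had another order of groups. Its lowest level was in ein2 in air, at 1456 and 1551, and its highest in ein5 in air, at 4174 and 5995. On ethylene ein2 lay at 2569 and 2781 and ein5 at 2304 and 2549. The air arrays of the mutants were therefore 3.38-fold apart in their means, and the ethylene arrays stood close together. Wild type lay between the mutants in air at 2871 and 3261, and its ethylene arrays, at 2504 and 3986, fell on both sides of its air arrays.

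The question put to the wild-type arrays was whether the genes respond to ethylene in seedlings with an intact pathway. In this comparison 3 of the 4 genes fell and 1 was not called, where 6.28% of all 22746 probe sets were called lower and 10.1% called either way. AT2G16630 fell by 1.75 ± 0.12 on the log2 scale (limma, adjusted p = 3.73e-07), a 3.36-fold lower level. AT2G22510 fell by 1.90 ± 0.15 (limma, adjusted p = 2.68e-06). For both genes the 2 ethylene arrays lay below both air arrays. AT3G06750 fell by 0.50 ± 0.11 (limma, adjusted p = 0.00932), but it was not called without a variance trend (adjusted p = 0.0527) or when the wild-type arrays alone were fitted (adjusted p = 0.143). AT3G54580 was not called, at 0.05 ± 0.20 (limma, adjusted p = 0.935), with a 95% interval of the change from -0.38 to 0.47. Its sign depended on single arrays. In wild type in ethylene the change was -0.29 without array 2 and 0.38 without array 1, and it was -0.05 without wild type in air array 1. In seedling RNA a lower level per cell and fewer cells of a type that expresses the gene cannot be told apart.

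The plot of responses sets the 3 genotypes side by side.

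**Figure D2:**
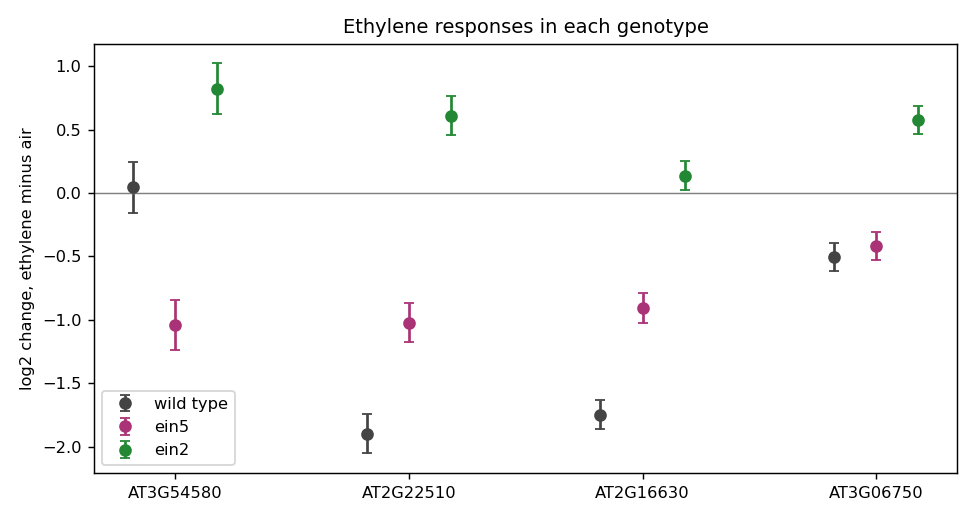
Log2 change on ethylene of each gene in wild type (dark grey), ein5 (purple) and ein2 (green), with the standard error of the limma fit as bars. The ein2 change is above 0 for all 4 genes and the ein5 change below 0, while wild type is below ein5 for AT2G22510 and AT2G16630 and near 0 for AT3G54580.

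The contrast that chose the genes is given as a description. The ethylene response of ein5 minus that of ein2 was -1.86 ± 0.28 for AT3G54580, -1.63 ± 0.22 for AT2G22510, -1.04 ± 0.16 for AT2G16630 and -0.99 ± 0.16 for AT3G06750. Over all features tested, 12 probe sets passed an adjusted p of 0.05 in it, 0.0528% of those tested, all 12 of them with a lower response in ein5. The 4 genes were all of those 12 that had a single gene name, and nothing is read from that count. The member nearest the threshold was AT3G06750. Just outside it were AT5G48490, with a difference of responses of -1.54 ± 0.26, and AT4G16980, with -1.47 ± 0.25.

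The differences were made up in different ways. AT3G54580 had changes of -1.04 ± 0.20 in ein5 and 0.82 ± 0.20 in ein2, of similar size and opposite sign. AT2G22510 had -1.02 ± 0.15 in ein5 and 0.61 ± 0.15 in ein2. AT3G06750 had -0.41 ± 0.11 in ein5 and 0.58 ± 0.11 in ein2. For AT2G16630 nearly all of the difference came from ein5, with -0.91 ± 0.12 there and 0.14 ± 0.12 in ein2. Both ein5 ethylene arrays lay below both air arrays for all 4 genes, and both ein2 ethylene arrays lay above both air arrays for 3. Over all probe sets these patterns were shown by 28.0% and 24.4%, and since the choice used these arrays nothing is read from the counts.

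Wild type stood in different places relative to the mutants. The ein5 response minus the wild-type response was 0.88 ± 0.22 for AT2G22510 and 0.84 ± 0.16 for AT2G16630, with the ein5 value nearer 0 in both. For AT3G06750 it was 0.09 ± 0.16. For AT3G54580 it was -1.09 ± 0.28, a lower response in ein5 than in wild type. The ein2 response minus the wild-type response was positive for all 4 genes, from 0.78 ± 0.28 for AT3G54580 to 2.51 ± 0.22 for AT2G22510. These comparisons share the arrays of the mutant that chose the genes or share the wild-type arrays with each other, and they were not tested here.

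Genotype differences in the level of these genes were tested on the means over air and ethylene. These means do not show whether a difference holds in both gases. They use the mutant arrays that chose the genes, with the same spread per probe set. Nothing is therefore read from the counts of these genes against the background. Between ein2 and wild type 2 genes were higher and 1 lower, against a background of 5.22% of probe sets higher and 3.36% lower. AT2G22510 was 2.77-fold higher in ein2 (1.47 ± 0.11, limma, adjusted p = 8.39e-07) and AT2G16630 was 1.72-fold higher (0.78 ± 0.08, limma, adjusted p = 2.23e-05). By gas, ein2 minus wild type was 0.22 ± 0.15 in air and 2.73 ± 0.15 in ethylene for AT2G22510. It was -0.16 ± 0.12 and 1.72 ± 0.12 for AT2G16630, and -0.30 ± 0.11 and 0.78 ± 0.11 for AT3G06750. For AT3G54580 it was -1.02 ± 0.20 and -0.24 ± 0.20. The higher means of AT2G22510 and AT2G16630 were thus seen on the ethylene arrays. AT3G54580 was lower in ein2 by 0.63 ± 0.14 on the log2 scale (limma, adjusted p = 0.0116), but it was not called without ein2 in air array 1 (adjusted p = 0.0523), without ein2 in ethylene array 1 (adjusted p = 0.0522) or without a variance trend (adjusted p = 0.0911). AT3G06750 was not called (0.24 ± 0.08, limma, adjusted p = 0.0780), and was called without wild type in ethylene array 2 (adjusted p = 0.0315).

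Between ein5 and wild type only AT2G22510 was called. It was 1.91-fold higher in ein5 (0.94 ± 0.11, limma, adjusted p = 0.000174), against a background of 4.62% of probe sets higher and 7.68% lower. By gas this difference was 0.50 ± 0.15 in air and 1.38 ± 0.15 in ethylene. The other differences and their 95% intervals were 0.16 (-0.14 to 0.47) for AT3G54580, 0.16 (-0.02 to 0.33) for AT2G16630 and 0.02 (-0.14 to 0.19) for AT3G06750. AT2G16630 was called after quantile normalization (0.25, adjusted p = 0.0492).

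Between the mutants 1 gene was higher in ein5 and 2 were lower, against a background of 4.92% of probe sets higher and 9.66% lower. AT3G54580 was 1.73-fold higher in ein5 than in ein2 (0.79 ± 0.14, limma, adjusted p = 0.00214), and AT2G16630 and AT2G22510 were lower in ein5 by 0.62 ± 0.08 (limma, adjusted p = 0.000232) and 0.53 ± 0.11 (limma, adjusted p = 0.00508) respectively. AT3G06750 was not called (-0.22 ± 0.08, limma, adjusted p = 0.0823), and was called without wild type in ethylene array 1 (adjusted p = 0.0457) or 2 (adjusted p = 0.0461), with array weights (adjusted p = 0.0360) and with only the mutant arrays fitted (adjusted p = 0.0354). These means hide the gas. For AT3G54580 ein5 minus ein2 was 1.72 ± 0.20 in air and -0.14 ± 0.20 in ethylene. For AT2G16630 it was -0.10 ± 0.12 in air and -1.14 ± 0.12 in ethylene, and for AT2G22510 it was 0.28 ± 0.15 and -1.35 ± 0.15. The higher level of AT3G54580 in ein5 was thus seen on the air arrays, and the lower levels of AT2G22510 and AT2G16630 on the ethylene arrays.

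Some markers of other cells and stages also differed between the genotypes. The seed list gene AT3G01570 was higher than in wild type by 2.26 ± 0.14 in ein2 (limma, adjusted p = 1.75e-07) and by 1.31 ± 0.14 in ein5 (limma, adjusted p = 9.72e-05), and its ein5 minus ein2 difference was -0.94 ± 0.14 (limma, adjusted p = 0.000697). The other measured seed gene, OLEO3, was not called, at -0.20 ± 0.11 in ein2 and -0.16 ± 0.11 in ein5 against wild type. AT2G22510 was highest in ein2 and lowest in wild type in these means, an order shared with AT3G01570 and not with OLEO3. AT2G16630 and AT3G06750 had this order too, with differences from wild type that were not all called. In air alone the orders differed. The mean of AT2G22510 was 5594 in ein5 and 4605 in ein2, and that of AT3G01570 was 2139 in ein5 and 4365 in ein2. All 3 measured of 18 root hair markers were called lower than in wild type in both mutants. They were lower by 0.58 to 0.84 in ein2 and 0.57 to 0.63 in ein5 on the log2 scale. Over all probe sets 3.36% were called lower in ein2 and 7.68% in ein5. The part of these cells or stages in the genotype differences was not tested.

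**Figure D3:**
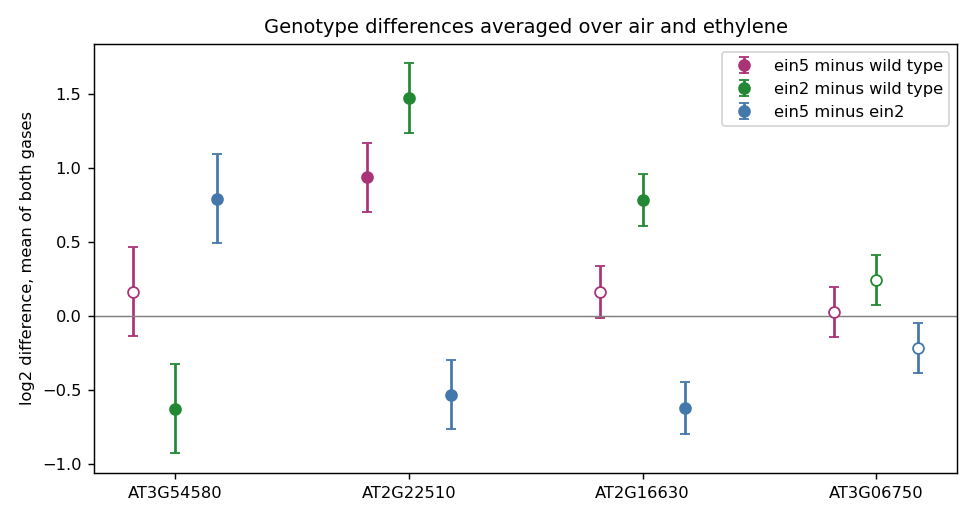
Log2 differences between genotypes for the 4 genes, each averaged over air and ethylene, with 95% intervals from the limma fit as bars (purple for ein5 minus wild type, green for ein2 minus wild type, blue for ein5 minus ein2). Filled points have an adjusted p under 0.05, and AT3G54580 lies on the other side of 0 from AT2G22510 and AT2G16630 in ein2 minus wild type and in ein5 minus ein2.

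The other genes of the extensin family were taken from a list of loci written from general knowledge of the family. Of its 26 genes besides AT3G54580, 15 were measured by a probe set of their own, and of these the gene table names only HRGP1, a hydroxyproline-rich glycoprotein (AT3G54590). In ein5 all 15 changes on ethylene were below 0, with a median of -0.54, where 56.7% of all probe sets were below 0 with a median of -0.05. In ein2 13 of 15 were above 0, with a median of 0.78, where 52.1% of all probe sets were above 0 with a median of 0.01. In wild type 11 of 15 were above 0, with a median of 0.22. Over all probe sets 51.7% were above 0 there, with a median of 0.02. The direction in both mutants was that of AT3G54580. In ein2 0 of the 15 were called by limma, where 0.514% of all probe sets were called. At an unadjusted p under 0.05 7 were higher, where 6.02% of all probe sets were. In ein5 1 of 15 was called, AT3G28550, which fell by 1.16 ± 0.25 (limma, adjusted p = 0.0355), where 0.849% of all probe sets were called lower. At an unadjusted p under 0.05 5 of the 15 were lower in ein5, where 7.32% of all probe sets were. The ein5 median rested in part on single arrays, since it was -0.74 without ein5 in air array 1 and -0.35 without array 2.

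AT3G28550 was also the gene nearest in pattern to AT3G54580. Its level was 3422 and 3970 in ein5 in air and 1767 and 1516 in ein5 in ethylene. In ein2 it was 1278 and 1350 in air and 2066 and 2241 in ethylene. In wild type it was 2372 and 2349 in air and 1469 and 3278 in ethylene. As for AT3G54580, the highest group was ein5 in air, the lowest ein2 in air, and the wild-type ethylene arrays fell on both sides of the air arrays.

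The response of ein5 minus that of ein2 was below 0 for 14 of the 15 extensin genes, with a median of -1.19 against -0.07 over all probe sets, of which 56.4% were below 0. By limma 0 of the 15 were called in it, and 8 were lower at an unadjusted p under 0.05, where 6.70% of all probe sets were. The lowest values were -2.17 ± 0.45 for AT1G26250 and -1.87 ± 0.36 for AT3G28550. HRGP1 was at -1.50 ± 0.38. The exception, AT4G33970, was at 0.02 ± 1.78. For 10 of the 15 both ein5 ethylene arrays lay below both air arrays and both ein2 ethylene arrays above both air arrays, a pattern shown by 6.92% of all probe sets. The probe sets of 4 of the 15 genes, among them HRGP1 and AT1G23720, carry the manufacturer's x mark for probes that match several sequences, so these genes are not independent of their near copies. Without those 4 the median was -1.18 and 10 of 11 values were below 0.

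**Figure D4:**
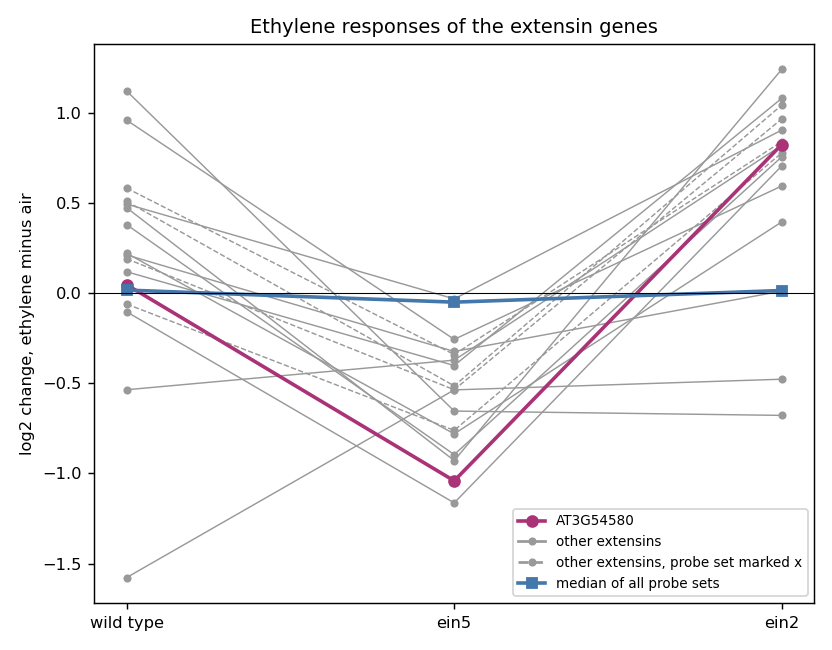
Log2 change on ethylene in wild type, ein5 and ein2 for AT3G54580 (purple), the 15 other measured extensin genes (grey, dashed where the probe set is marked x) and the median of all probe sets (blue). All extensin genes are below 0 in ein5 and 13 of the 15 others are above 0 in ein2.

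The replicates of wild type in ethylene did not agree on this family. Array 2 read higher than array 1 for 14 of the 15 extensin genes, with a median difference of 1.21 on the log2 scale, where 63.1% of all probe sets read higher on array 2. HRGP1 was at 8267 on array 1 and 19192 on array 2, against 10914 and 11163 in air. By limma 0 of the 15 were called in wild type, where 10.1% of all probe sets were. At an unadjusted p under 0.05 1 was higher and 1 lower, against 9.87% and 12.4% of all probe sets. In ein5 in air array 2 read higher for 13 of the 15, with a median difference of 0.33, where 51.1% of all probe sets read higher on it. In ein5 in ethylene array 2 read higher for 4 of the 15, with a median difference of -0.25. The 2 ein2 groups differed by medians of 0.16 and 0.10, and wild type in air by -0.01.

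Averaged over both gases, 1 of the 15 extensin genes was called lower in ein5 than in wild type and 1 lower in ein2 than in wild type, where 7.68% and 3.36% of all probe sets were called lower, and 0 were called higher. Between the mutants 1 was called lower in ein5, where 9.66% of all probe sets were. These shares are near those over all probe sets. AT1G26250 was lower in ein5 than in wild type by 0.95 ± 0.22 (limma, adjusted p = 0.0135) and lower than in ein2 by 0.75 ± 0.22 (limma, adjusted p = 0.0383). AT1G23720 was lower in ein2 than in wild type by 0.47 ± 0.13 (limma, adjusted p = 0.0423). Of the 15 genes 12 were below 0 in ein2 minus wild type, with a median of -0.47, as AT3G54580 was. Over all probe sets 48.2% were below 0 in it, with a median of 0.01.

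Enzymes that hydroxylate and glycosylate extensins formed another list, of which 4 of 13 genes were measured. These 4 are not taken to cover both steps. By limma 0 of the 4 were called on ethylene in any genotype, where 10.1% of all probe sets were called for wild type, 1.62% for ein5 and 0.514% for ein2. At an unadjusted p under 0.05 there were 2 for wild type and 1 for each mutant, where 22.3%, 12.4% and 9.95% of all probe sets were. Their changes lay between -0.43 and 0.47. Averaged over gases, 3 of the 4 were lower in ein5 than in wild type, by 0.48 ± 0.09 for AT5G13500 (limma, adjusted p = 0.00355), 0.45 ± 0.09 for AT3G57630 (adjusted p = 0.0061) and 0.38 ± 0.09 for AT3G01720 (adjusted p = 0.0113), where 7.68% of all probe sets were called lower. The other measured gene, XEG113, which encodes an arabinosyltransferase, was not called. In ein2 minus wild type 1 of 4 was lower, where 3.36% of all probe sets were, and in ein5 minus ein2 1 of 4, where 9.66% were.

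Of the proline-rich protein list 2 of 9 genes were measured, and 0 were called on ethylene by limma in any genotype (at an unadjusted p under 0.05, 2 for wild type, 0 for ein5, 1 for ein2). The shares over all probe sets are those given for the enzymes, and lists of so few genes are not set against them. The ein5 minus ein2 differences of responses were -0.42 for AT1G09750 and -0.96 for AT2G34700. The gene table lists both by locus number alone, and whether they encode proline-rich proteins was not checked. A search of gene names for extensin or proline-rich wording found 39 genes, of which 3 were measured, HRGP1 and the basic proline-rich protein genes AT3G09000 and AT5G01280, with 0 called by limma on ethylene (at an unadjusted p under 0.05, 0 for wild type, 1 for ein5, 2 for ein2). The lists of 21 arabinogalactan proteins and 17 fasciclin-like arabinogalactan proteins had 0 measured members under a single gene name.

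The 4 genes fell into one cluster of 3 and AT3G54580 when their log2 values were set against each other over the 12 arrays. Pearson's r was 0.92 between AT2G22510 and AT2G16630, 0.81 between AT2G22510 and AT3G06750 and 0.79 between AT2G16630 and AT3G06750. For AT3G54580 it was -0.01, -0.07 and 0.30 with these 3 genes. The arrays share the 6 group means and the scaling, so these values describe the pattern over groups. The genes most like AT3G54580 among the other 13512 single-gene probe sets were AT3G28550 (r = 0.94), AT1G74860 (0.94) and AT1G23720 (0.91), of which the first and the last are on the extensin list.

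The genes most like AT2G16630 were AT1G75900 (r = 0.98), the pectin methylesterase gene PME61 (0.98) and AT4G36610 (0.98). PME61 had changes on ethylene of -1.65, -0.91 and 0.36 in wild type, ein5 and ein2, beside -1.75, -0.91 and 0.14 for AT2G16630. AT1G75900 had a larger change in wild type, -3.04, and -0.11 in ein2. The genes most like AT2G22510 were AT1G72230 (r = 0.98), AT2G03200 (0.97) and AT2G48130 (0.96), and those most like AT3G06750 were AT1G36940 (0.92), AT2G38710 (0.91) and AT3G42480 (0.91). AT3G42480 had values of the same signs as AT3G06750 and larger sizes, with -1.33, -1.34 and 1.84 in wild type, ein5 and ein2.

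In the gene order of the TAIR10.1 assembly AT3G54580 and HRGP1 are direct neighbours. Of the 8 direct neighbours of the 4 genes 5 were measured. HRGP1 apart, their differences of responses were 0.19 ± 0.97 for AT3G54570, -1.70 ± 1.25 for AT2G22520, -1.54 ± 1.07 for AT2G16620 and -0.40 ± 0.18 for AT3G06760. The first 3 of these have standard errors near or above 1, so agreement between neighbours was not detectable for them.

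Markers of cells that a seedling could hold were summed beside these results. The 3 measured of 18 root hair markers summed to 8007 to 8380 in ein5 in air and 11188 to 12664 in ein5 in ethylene, and to 8173 to 8602 and 10932 to 11168 in ein2. In wild type they summed to 10763 to 14509 and 15557 to 19613. This sum was higher on ethylene in all 3 genotypes, and most of it was AT1G30870. The 4 measured of 9 guard cell lineage markers summed to 864 to 1063 in air and 930 to 941 in ethylene in ein5. In ein2 they summed to 1063 to 1288 in air and 501 to 699 in ethylene. In wild type they summed to 654 to 792 in air and 924 to 1023 in ethylene. The 2 measured of 11 seed storage markers summed to 6380 to 6809 in wild type in air and to between 7801 and 12253 in the other groups, and most of this sum was OLEO3, an oleosin gene of seed oil bodies. No measured marker of these lists had a group mean at or under 16, the value added before taking log2. The guard cell lineage gene MUTE came close, at 17.4 in ein5 in ethylene. The part of these cells in the results was not tested.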

How the data were processed

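The deposited table holds 1 linear intensity per probe set and array. The authors used GeneChip Suite 3.2 and GeneSpring 4.2, per the series text. That text also reports dividing each array by its median, which the deposited intensities, with medians of 922 to 1039, do not show. The platform table gave 1 gene for 13513 probe sets, several for 503 and none for 8730, which are unnamed here. Arrays were scaled so that the medians of values over 10 became equal (factors 0.949 to 1.07), 16 was added and log2 taken, with 3.86% to 6.16% of values at or under that offset. Group means were fitted to all 12 arrays with limma 3.58.1 in R 4.3.3 (variance trend, 6 residual degrees of freedom, two-sided, Benjamini-Hochberg over all 22746 probe sets, called at an adjusted p under 0.05). The number of arrays limits the precision. Ranges of the alternatives close the text. The members, lists and comparisons were chosen with earlier results of these data known. Named were the members, list genes called in the difference of mutant responses or leading in wild type, and the 3 genes most like each member; list and marker genes called elsewhere, the lowest values of the extensin list, its exception and the neighbours were named after their values were seen.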

Additional observations from a re-analysis of the deposited data

Results flagged for a closer look

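For 3 of the 4 genes both ethylene arrays lay below both air arrays in ein5 and above both air arrays in ein2, a pattern shown by 6.92% of all probe sets. The ratio of the ethylene to the air mean was 0.477 in ein5 and 1.78 in ein2 for AT3G54580, 0.491 and 1.53 for AT2G22510, and 0.750 and 1.49 for AT3G06750. For 2 of the 4 genes wild type and ein2 separated in the same way, as did 5.09% of all probe sets, with ratios of 0.265 and 1.53 for AT2G22510 and 0.706 and 1.49 for AT3G06750. The mutant responses chose these genes, so the differences were not tested here.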

How the results depend on the processing

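The alternatives were 9 other settings and the omission of each of the 12 arrays. The falls of AT2G22510 and AT2G16630 in wild type were called under the 9 other settings. Their changes were -2.10 to -1.70 and -1.85 to -1.65 under all 21 alternatives. The differences of responses that chose the 4 genes kept their sign under all 21. Genes chosen for a large difference would be likely to keep it, so nothing is read from this. The calls of that contrast, 12 by limma, depended on the setting: 7 with values as deposited, 4 after quantile normalization, 4 with an offset of 64, 4 with the replicate block, 0 without a variance trend (2366 of the main fit had an unadjusted p under 0.05), 31 without dim probe sets, 194 with array weights, 301 with only the compared groups, and 0 to 88 when an array was left out. Wild-type calls, 2298, were 1323 without a trend, 1309 with array weights, 813 with only the compared groups and 1589 to 2846 when an array was left out. For the means of both gases, 3318 calls between the mutants were 1741 without a trend and 1748 to 4338 when an array was left out; 2797 for ein5 minus wild type were 1130 without a trend, 1740 with only the compared groups and 1279 to 3996; 1953 for ein2 minus wild type were 1160 without a trend and 1164 to 2344. The cause was not tested. The split of higher and lower calls moved with the scaling: 1120 and 2198 between the mutants were 2030 and 1365 with values as deposited, where the median of all probe sets moved by 0.101, and 1560 and 1576 after quantile normalization; 1051 and 1746 for ein5 minus wild type were 1687 and 1217, and 1480 and 1407. Over all probe sets replicate numbers did not pair the arrays: in 15 pairs of groups the deviations correlated between -0.04 and 0.07. The replicate block changed no call of the 4 genes. For AT3G54580, however, array 2 read above array 1 in each of the 6 groups. With the replicate block the standard error of its wild-type change was 0.15, against 0.20 in the main fit. Without ein5 in air array 1 or 2 the ein5 change of AT3G54580 was -1.30 or -0.78, and without ein2 in ethylene array 1 or 2 the ein2 change of AT2G16630 was 0.25 or 0.02. Without 1 array the extensin median was -0.74 to -0.35 in ein5 and 0.67 to 0.88 in ein2.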
